A study of Mus musculus with 6 samples.

Results

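The genes described here encode the mitochondrial ribosome and the factors that load, move, release and transcribe for it. Members were every gene in the platform annotation whose symbol begins with Mrpl or Mrps, together with a fixed list of 14 factors, of which 13 had a probe set naming a single gene. This gave 89 genes among the 18193 genes tested, with 47 large subunit proteins, 29 small subunit proteins and 13 factors. The factor Mtrf1 and the ribosomal proteins Mrpl30 and Mrpl53 had no probe set naming them alone and were not analysed as members. Each gene was read from its brightest probe set over the 6 arrays.

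Expression was measured on Affymetrix arrays in macro-dissected kidney epithelium, 1 array per sample. There were 3 samples of cystic renal epithelium from mice labelled Fh1 knockout and 3 of renal epithelium from wild-type littermates, which were sex-matched and free of disease. Fh1 encodes fumarate hydratase, the enzyme of the tricarboxylic acid cycle that converts fumarate to malate. The sources used here give neither the age of the mice nor the targeted allele or any Cre driver. They also leave unstated whether the samples are from different animals, and p-values therefore reflect only the variation among these samples, which may be technical. Expression values are log2 and come from RMA, and a log2 fold change is the mean of knockout arrays minus the mean of wild-type arrays.

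Mitochondria keep their own ribosome, which translates the few proteins encoded by mitochondrial DNA, all of them hydrophobic core subunits of the respiratory chain and ATP synthase. Its RNA comes from mitochondrial DNA, but every one of its proteins and factors is encoded in the nucleus and imported. The large subunit forms peptide bonds and feeds the new chain into the inner membrane, and the small subunit reads the mRNA. Many of the proteins descend from bacterial ribosomal proteins, whereas others have no counterpart in bacteria. In the kidney the demand is high in the tubule, above all in the proximal tubule, whose cells are dense with mitochondria.

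The checks of the samples were as follows. Fh1 was lower in the knockout, at 11.54, 11.60 and 11.61 in knockout arrays, against 12.41, 12.34 and 12.22 in wild-type arrays (log2 fold change -0.74, SE 0.08, adjusted p = 0.000396). Whether its probe set lies in the deleted part of the gene was not tested. Of 6 measured markers of renal epithelium, 5 were higher in the knockout and none was lower, and the broad tubule marker Cdh16 was bright in both groups, at 13.10 ± 0.07 in knockout and 13.15 ± 0.08 in wild-type arrays (SD, n = 3 each). Of 15 proximal tubule markers 12 were lower and none higher, with a median log2 fold change of -1.50, and their summed linear signal was 59847 to 64122 in knockout arrays and 126074 to 146594 in wild-type arrays. All 7 markers of the loop of Henle and distal tubule were lower (summed signal 24334 to 32314 in knockout and 57939 to 66980 in wild-type arrays), as were 3 of 7 markers of the collecting duct, 5 of 6 of endothelium and 2 of 4 of podocytes. Of 12 immune markers 10 were higher (summed signal 9283 to 12675 in knockout and 4061 to 5352 in wild-type arrays), and of 10 fibroblast and matrix markers 7 were higher (12097 to 20472 in knockout and 4603 to 5878 in wild-type arrays). RMA gives no zeros, so no marker can be called absent. The least bright were Slc5a12 among proximal tubule markers, at a knockout mean of 7.86, and Itgam among immune markers, at a wild-type mean of 4.996, with array lower quartiles of 4.62 to 4.77. In bulk tissue fewer cells of a type and less RNA per cell cannot be told apart, and the part of these shifts in the results below was not tested.

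Most genes of the mitochondrial ribosome were lower in the cystic knockout tissue, in both subunits. Of 47 large subunit genes, 30 fell, 3 rose and 14 did not pass the adjusted p threshold of 0.05. Of 29 small subunit genes, 17 fell, 1 rose and 11 did not pass. Of 13 factors, 7 fell, none rose and 6 did not pass. Over all 18193 genes, 27.7% fell and 21.6% rose by the same test (49.2% in either direction; with array medians set equal, 6866 of 10246 calls were lower, against 5031 of 8959 here), so members that fell were 60.7% of their list and members that rose 4.49%. A fit restricted to the brighter 9097 genes held 88 of the 89 members, and in it 25.7% of genes fell and 32.4% rose, while 54 members fell and 4 rose. No test was made over the list as a whole.

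The falls were small in size. The median log2 fold change was -0.28 in the large subunit, -0.27 in the small subunit and -0.34 among factors, beside -0.11 over all genes. Read from brightest probe sets, Gfm2 alone among members changed by at least 2-fold. By at least 1.5-fold, 8 of 89 members fell and 1 rose. Of all 18193 genes, 1620 fell and 2157 rose by as much, so at this size the share that fell was close to that of all genes. The values separated well despite the size: all 3 knockout arrays lay below all 3 wild-type arrays for 60 of the 89 members, where 37.1% of all genes did so, and above them for 6 members, where 25.7% of all genes did so. The counts of calls were smaller when any knockout array was left out, among members and over all genes. Without knockout 1, 2 or 3 the large subunit genes that fell numbered 16, 17 and 19, and without knockout 1 or 3 the small subunit genes that fell numbered 9 and 10. Over all genes, those that fell numbered 3160, 3702 and 3279 without knockout 1, 2 or 3, against 5031 with all arrays.

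**Figure D1:**
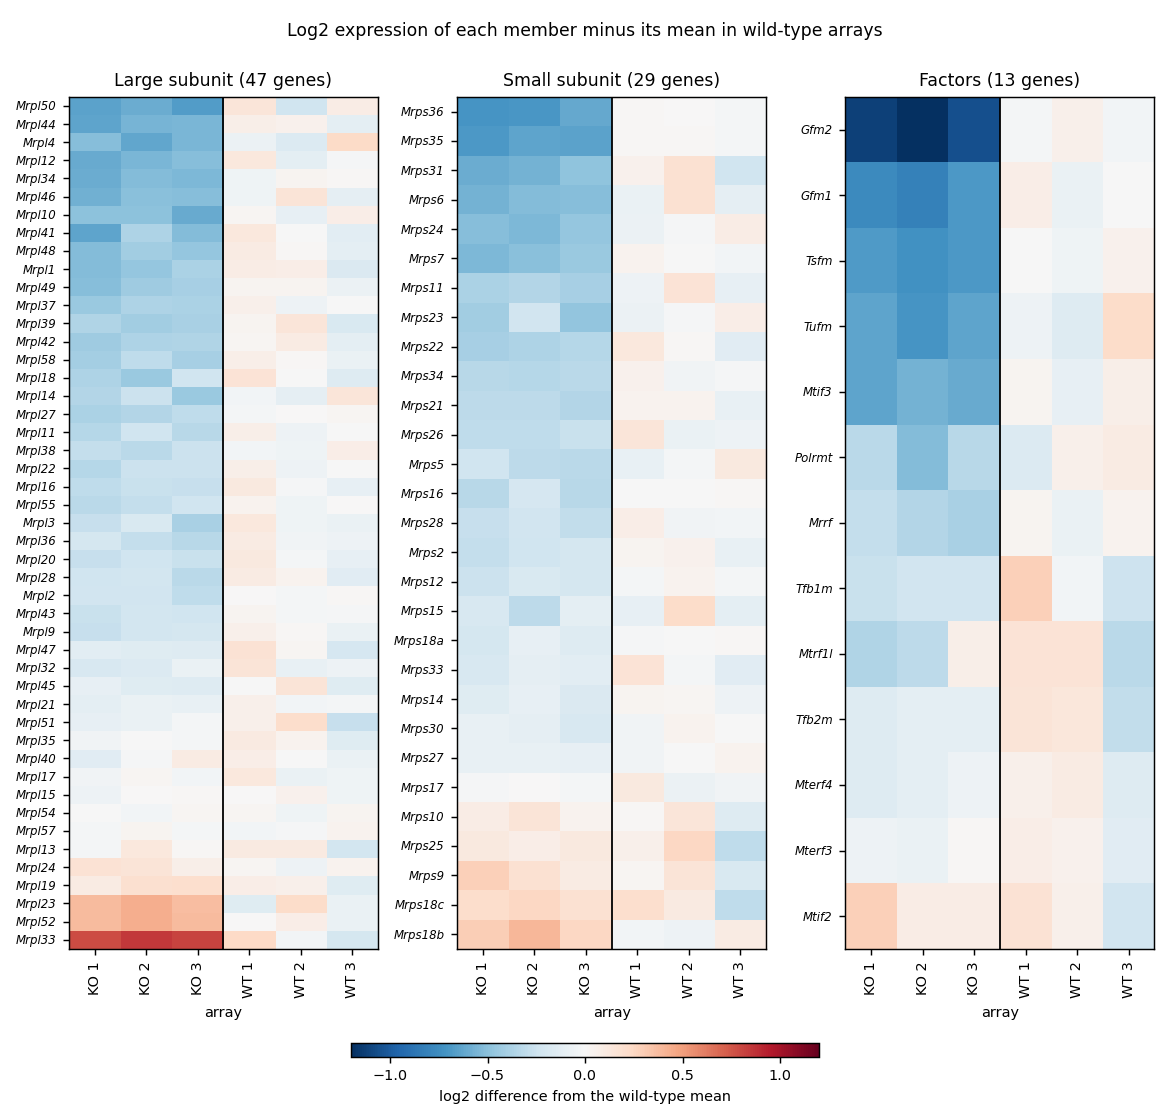
Each row is a member and each column an array, with the 3 knockout arrays left of the 3 wild-type arrays, and the colour gives the log2 value minus the gene's mean in wild-type arrays. Most rows are blue in all 3 knockout arrays, Gfm2 is the deepest, and Mrpl33 stands out as red.

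The large and small subunits were set against each other because they pair in the assembled ribosome. Averaged over its 47 genes, the large subunit read 10.001, 10.05 and 10.03 in knockout arrays, against 10.30, 10.25 and 10.19 in wild-type arrays, on the log2 scale. Averaged over its 29 genes, the small subunit read 9.73, 9.76 and 9.74 in knockout arrays, against 9.996, 10.02 and 9.91 in wild-type arrays. Both averages were lower in every knockout array than in any wild-type array. The large average minus the small one was 0.281 ± 0.011 in knockout and 0.270 ± 0.040 in wild-type arrays (SD, n = 3 each), and the ranges of the groups overlapped. This distance itself compares different probe sets, so only its change between arrays can be read. The difference of the list medians, large minus small, was -0.01.

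Symbols do not follow structure everywhere. Mrps30 and Mrps18a carry small subunit names, but structures of the mammalian mitochondrial ribosome place both proteins in the large subunit. Counted there, the medians were -0.28 for 49 large and -0.29 for 27 small subunit genes. Those 27 still include Mrps36, which is not in these structures. Without it, a choice made after the values were seen, the small subunit median was -0.28 over 26 genes, of which 16 fell and 1 rose. Mrps30 and Mrps18a were not called. Mrps30 read 9.35, 9.33 and 9.25 in knockout arrays, against 9.40, 9.48 and 9.43 in wild-type arrays (log2 fold change -0.13, 95% confidence interval -0.31 to 0.05), and Mrps18a read 10.03, 10.15 and 10.09 in knockout arrays, against 10.23, 10.25 and 10.26 in wild-type arrays (log2 fold change -0.15, interval -0.33 to 0.02). In both genes the 3 knockout values lay below the 3 wild-type values by a narrow margin.

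**Figure D2:**
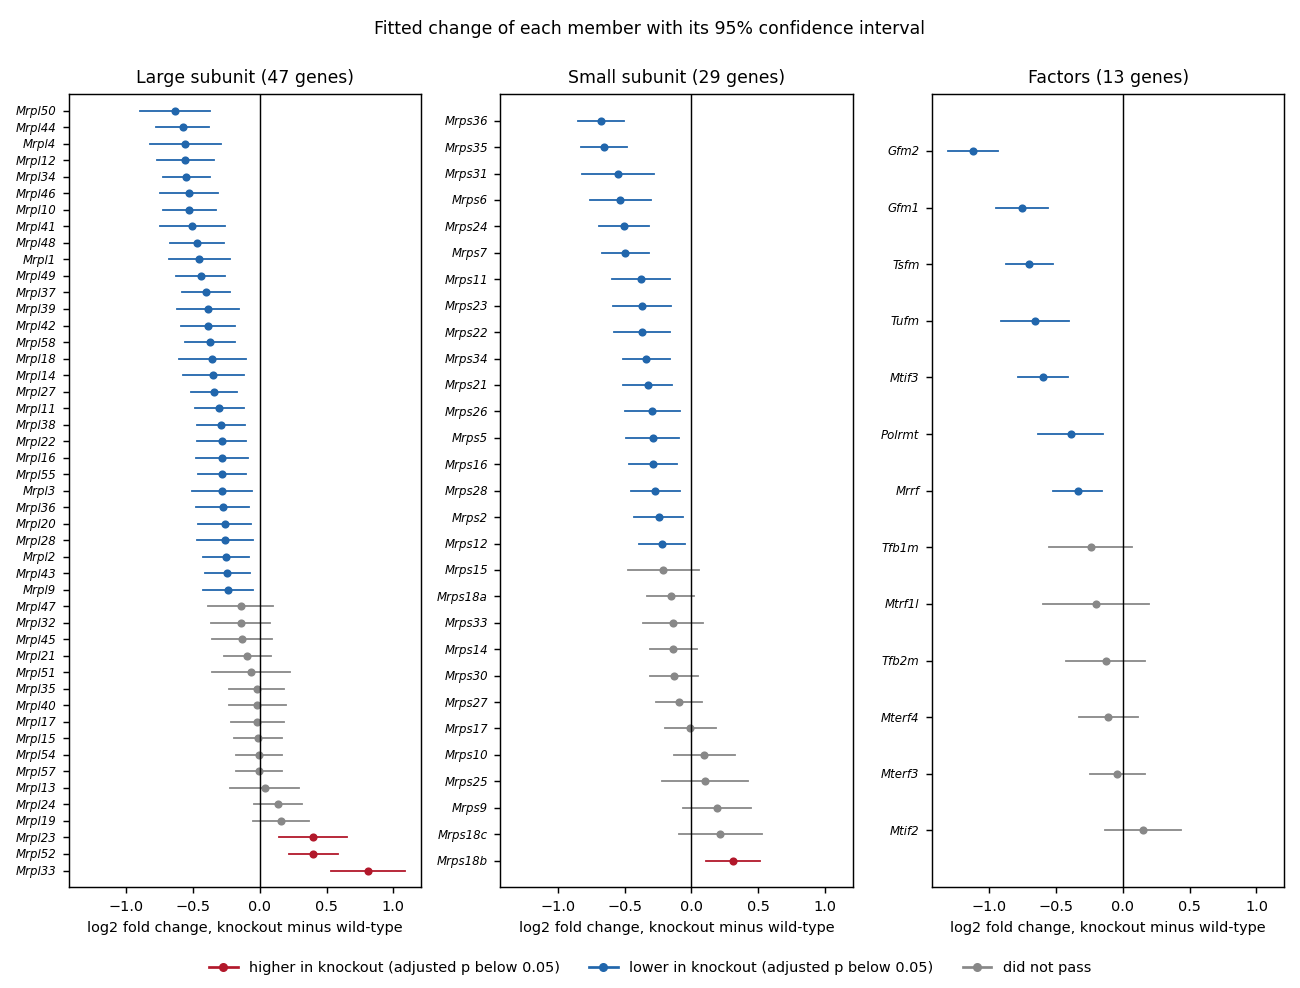
Points are the log2 fold changes of the 89 members, knockout minus wild-type, with 95% confidence intervals from the fit, sorted within each panel and coloured by call. Blue points run from Mrpl50, Mrps36 and Gfm2 at the top of the panels, and the 4 red points are Mrpl23, Mrpl52, Mrpl33 and Mrps18b.

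In the large subunit the deepest falls were in Mrpl50, Mrpl44, Mrpl4, Mrpl12, Mrpl34 and Mrpl46. Mrpl50, which has no bacterial counterpart, read 9.996, 10.04 and 9.96 in knockout arrays, against 10.78, 10.40 and 10.73 in wild-type arrays (log2 fold change -0.64, SE 0.11, adjusted p = 0.00336). Its dimmer probe set averaged 8.66 in knockout and 8.96 in wild-type arrays and did not pass (log2 fold change -0.30). Mrpl44, a protein with a fold related to RNase III, read 9.96, 10.03 and 10.04 in knockout arrays, against 10.66, 10.64 and 10.47 in wild-type arrays (log2 fold change -0.58, SE 0.09, adjusted p = 0.00143). Mrpl4, whose bacterial counterpart lines the tunnel through which the new peptide leaves, read 10.20, 10.09 and 10.17 in knockout arrays, against 10.65, 10.55 and 10.95 in wild-type arrays (log2 fold change -0.56, SE 0.11, adjusted p = 0.00623). In all of these the groups were separate, and wild-type 2 lay nearest to the knockout for Mrpl50 and Mrpl4. Mrpl34, a counterpart of a bacterial protein, read 9.64, 9.72 and 9.71 in knockout arrays, against 10.19, 10.28 and 10.26 in wild-type arrays (log2 fold change -0.55, SE 0.08, adjusted p = 0.00104). Mrpl46, of the central protuberance, read 9.61, 9.69 and 9.68 in knockout arrays, against 10.14, 10.35 and 10.09 in wild-type arrays (log2 fold change -0.53, SE 0.09, adjusted p = 0.00302). Neither of them overlapped between the groups.

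The stalk is the arm of the large subunit that recruits elongation factors, and the 3 of its proteins examined here, Mrpl10, Mrpl11 and Mrpl12, fell. In the large subunit 30 of 47 genes fell, and any other protein of the stalk was not singled out. Mrpl12, the stalk protein that has also been reported to bind the mitochondrial RNA polymerase, read 10.73, 10.78 and 10.83 in knockout arrays, against 11.46, 11.22 and 11.32 in wild-type arrays (log2 fold change -0.56, SE 0.09, adjusted p = 0.00217). Mrpl10, which anchors Mrpl12 to the ribosome, read 10.03, 10.03 and 9.92 in knockout arrays, against 10.54, 10.42 and 10.60 in wild-type arrays (log2 fold change -0.53, SE 0.08, adjusted p = 0.00205). Mrpl11, at the base of the stalk, read 9.75, 9.86 and 9.77 in knockout arrays, against 10.16, 10.03 and 10.09 in wild-type arrays (log2 fold change -0.30, SE 0.08, adjusted p = 0.0172). The groups did not overlap in any of them, and the fall of Mrpl11 was the smallest. Its call did not survive leaving out knockout 1 (adjusted p = 0.0675) or knockout 3 (adjusted p = 0.0613), or taking the mean of its 4 probe sets (log2 fold change -0.15, adjusted p = 0.0923).

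The other large subunit genes that fell were Mrpl41, Mrpl48, Mrpl1, Mrpl49, Mrpl37, Mrpl39, Mrpl42, Mrpl58, Mrpl18, Mrpl14, Mrpl27, Mrpl38, Mrpl22, Mrpl16, Mrpl55, Mrpl3, Mrpl36, Mrpl20, Mrpl28, Mrpl2, Mrpl43 and Mrpl9. Their log2 fold changes ran from -0.50 (Mrpl41) to -0.24 (Mrpl9). Among them, Mrpl58 is the peptidyl-tRNA hydrolase built into the large subunit, known for rescue of stalled ribosomes, and it fell by 0.37 on the log2 scale. Mrpl47, Mrpl32, Mrpl45, Mrpl21, Mrpl51, Mrpl35, Mrpl40, Mrpl17, Mrpl15, Mrpl54, Mrpl57, Mrpl13, Mrpl24 and Mrpl19 did not pass, with fitted changes of -0.14 to 0.16. Large subunit proteins were split by a fixed list into those with a bacterial counterpart and those without. Of 28 with a counterpart 18 fell and 2 rose (median -0.27), and of 19 without one 12 fell and 1 rose (median -0.37). The list counts Mrpl47 as having no counterpart and was not checked against protein sequences.

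Against this background 3 large subunit genes rose. Mrpl33, a small protein with a bacterial counterpart, read 10.48, 10.55 and 10.51 in knockout arrays, against 9.94, 9.67 and 9.49 in wild-type arrays (log2 fold change 0.81, SE 0.12, adjusted p = 0.00137). It was 1.76-fold higher, with knockout values close together and wild-type values further apart. Another Mrpl33 probe set was dim, at 4.68 in knockout and 4.92 in wild-type arrays, and did not pass. Mrpl52, which has no bacterial counterpart, read 11.01, 11.06 and 11.01 in knockout arrays, against 10.63, 10.70 and 10.55 in wild-type arrays (log2 fold change 0.40, SE 0.08, adjusted p = 0.00521). Of its other 3 probe sets, those averaging 10.36 and 10.52 in the knockout also rose, with log2 fold changes of 0.69 and 0.70, and the dim one did not pass. Mrpl23, the counterpart of a bacterial protein at the exit of the peptide tunnel, read 10.46, 10.52 and 10.46 in knockout arrays, against 9.94, 10.31 and 10.01 in wild-type arrays (log2 fold change 0.40, SE 0.11, adjusted p = 0.0201). The groups were separate for each of these genes, but wild-type 2 came close to the knockout for Mrpl23. The call of Mrpl23 ended without knockout 1, 2 or 3 or wild-type 1 (log2 fold change 0.32 to 0.41, adjusted p = 0.0530 to 0.0664).

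In the small subunit the deepest falls were in Mrps36 and Mrps35. Mrps36 read 9.92, 9.93 and 10.01 in knockout arrays, against 10.64, 10.64 and 10.61 in wild-type arrays (log2 fold change -0.68, SE 0.08, adjusted p = 0.000374). Despite its symbol, the Mrps36 protein has since been assigned to the oxoglutarate dehydrogenase complex of the tricarboxylic acid cycle, and structures of the mammalian ribosome do not contain it. Mrps35, a small subunit protein with no bacterial counterpart, read 9.59, 9.64 and 9.63 in knockout arrays, against 10.29, 10.29 and 10.25 in wild-type arrays (log2 fold change -0.66, SE 0.07, adjusted p = 0.000383). The wild-type values of both genes lay close together, well above every knockout value. Mrps31, another small subunit protein, read 8.96, 8.996 and 9.08 in knockout arrays, against 9.62, 9.74 and 9.32 in wild-type arrays (log2 fold change -0.55, SE 0.12, adjusted p = 0.00727), with wild-type 3 nearest to the knockout. Mrps6, the counterpart of a bacterial protein, read 10.90, 10.94 and 10.95 in knockout arrays, against 11.39, 11.65 and 11.35 in wild-type arrays (log2 fold change -0.53, SE 0.10, adjusted p = 0.00399), and its other probe set fell by 0.81 on the log2 scale. Mrps24, the counterpart of a bacterial protein where mRNA enters, read 10.09, 10.06 and 10.13 in knockout arrays, against 10.53, 10.59 and 10.69 in wild-type arrays (log2 fold change -0.51, SE 0.08, adjusted p = 0.00195). Its other probe set averaged 10.04 in knockout and 10.26 in wild-type arrays, nearly as bright, and did not pass (log2 fold change -0.22). By the brightest probe set the groups were apart in both Mrps6 and Mrps24.

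The remaining small subunit genes that fell were Mrps7, Mrps11, Mrps23, Mrps22, Mrps34, Mrps21, Mrps26, Mrps5, Mrps16, Mrps28, Mrps2 and Mrps12, with log2 fold changes from -0.50 (Mrps7) to -0.22 (Mrps12). Mrps12, a protein of the decoding centre, read 9.82, 9.89 and 9.87 in knockout arrays, against 10.05, 10.12 and 10.06 in wild-type arrays (log2 fold change -0.22, SE 0.07, adjusted p = 0.0429). The groups did not overlap, but the call ended when any array other than wild-type 3 was left out (log2 fold change -0.24 to -0.20, adjusted p = 0.0669 to 0.139). Mrps21 was the only member with probe sets called in opposite directions. Its brighter one read 10.94, 10.94 and 10.90 in knockout arrays, against 11.30, 11.30 and 11.17 in wild-type arrays (log2 fold change -0.33, SE 0.08, adjusted p = 0.0118). The other averaged 7.41 in knockout and 6.92 in wild-type arrays (log2 fold change 0.48), so the direction of the gene is uncertain. Mrps15, Mrps18a, Mrps33, Mrps14, Mrps30, Mrps27, Mrps17, Mrps10, Mrps25, Mrps9 and Mrps18c did not pass, with fitted changes of -0.21 to 0.22. Of 15 small subunit genes with a bacterial counterpart 9 fell and none rose (median -0.25), and of 14 without one 8 fell and 1 rose (median -0.28). This split is a fixed list that was not checked against protein sequences, and it counts Mrps28 as having no counterpart. It takes Mrps18c alone among its paralogues as the bacterial counterpart. With Mrps18a and Mrps18b added to it, an assignment made after the values were seen, 9 of 17 fell and 1 rose (median -0.22), and of 12 without a counterpart 8 fell and none rose (median -0.31).

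Mammals carry 3 paralogues of a single bacterial small subunit protein, of which 1 was called. Mrps18b was the 1 small subunit gene that rose, at 10.01, 10.11 and 9.97 in knockout arrays, against 9.68, 9.65 and 9.81 in wild-type arrays (log2 fold change 0.31, SE 0.09, adjusted p = 0.0197). Mrps18c read 10.50, 10.53 and 10.47 in knockout arrays, against 10.48, 10.39 and 9.98 in wild-type arrays and did not pass (log2 fold change 0.22, interval -0.10 to 0.53, adjusted p = 0.206), with wild-type 3 apart from the other wild-type arrays. Mrps18a, given above, was fitted at -0.15. The differences between the paralogues were not tested. The call of Mrps18b ended when the arrays' medians were set equal (log2 fold change 0.24, adjusted p = 0.0566), with quantile normalization (0.26, adjusted p = 0.0595) and without knockout 1, knockout 2 or wild-type 1 (adjusted p = 0.0504 to 0.0729).

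**Figure D3:**
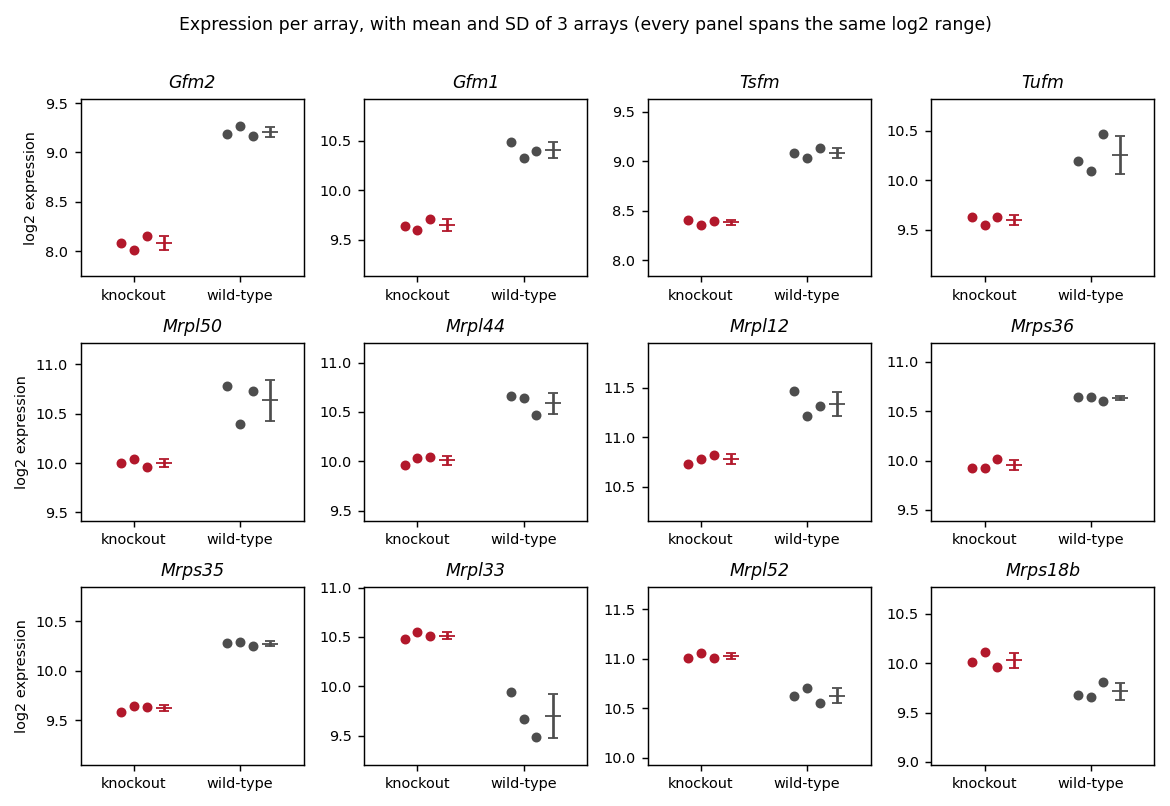
Log2 expression of 12 members in each knockout array (left in each panel) and each wild-type array (right), with the mean and SD of 3 arrays beside the points. The knockout points lie below the wild-type points in the first 9 panels, from Gfm2 to Mrps35, and above them for Mrpl33, Mrpl52 and Mrps18b.

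Among the factors, Gfm2 and the elongation factors fell the most. Gfm2, the elongation factor G that with the recycling factor splits the ribosome after translation, read 8.08, 8.01 and 8.15 in knockout arrays, against 9.18, 9.26 and 9.17 in wild-type arrays (log2 fold change -1.12, SE 0.08, adjusted p = 5.81e-05). It was 2.18-fold lower, the largest change among the 89 members by brightest probe set, and a dimmer probe set fell by 0.52 on the log2 scale. A dimmer probe set of Mrpl15, a gene that did not pass, changed more (log2 fold change 1.22). Gfm1, the elongation factor G that moves the ribosome along the mRNA, read 9.64, 9.60 and 9.71 in knockout arrays, against 10.49, 10.33 and 10.40 in wild-type arrays (log2 fold change -0.76, SE 0.08, adjusted p = 0.000336). Tufm, elongation factor Tu, which brings aminoacyl-tRNA to the ribosome, read 9.62, 9.54 and 9.63 in knockout arrays, against 10.20, 10.10 and 10.47 in wild-type arrays (log2 fold change -0.66, SE 0.11, adjusted p = 0.00244). Tsfm, elongation factor Ts, which returns Tufm to its GTP-bound form, read 8.40, 8.35 and 8.39 in knockout arrays, against 9.08, 9.04 and 9.14 in wild-type arrays (log2 fold change -0.70, SE 0.08, adjusted p = 0.000317). For these 4 genes the gap between the groups exceeded the spread within either group.

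Both recycling genes fell, Gfm2 above and Mrrf, 1 of 2 initiation genes fell and the release gene did not pass. Over all genes 27.7% fell, and groups this small cannot show a difference between roles. Mtif3, the initiation factor that keeps the small subunit free to start, read 7.99, 8.05 and 8.02 in knockout arrays, against 8.65, 8.52 and 8.69 in wild-type arrays (log2 fold change -0.60, SE 0.08, adjusted p = 0.000932). Mtif2, which places the initiator tRNA, read 9.68, 9.48 and 9.48 in knockout arrays, against 9.57, 9.45 and 9.16 in wild-type arrays and did not pass (log2 fold change 0.15, interval -0.13 to 0.44, adjusted p = 0.316). Its groups overlapped. Mrrf, the ribosome recycling factor that acts with Gfm2, was 1.27-fold lower, at 8.88, 8.82 and 8.77 in knockout arrays, against 9.19, 9.09 and 9.21 in wild-type arrays (log2 fold change -0.34, SE 0.08, adjusted p = 0.0107). The release factor Mtrf1l, which ends translation at stop codons, was the dimmest member, read 6.63, 6.68 and 7.07 in knockout arrays, against 7.16, 7.16 and 6.67 in wild-type arrays and did not pass (log2 fold change -0.20, interval -0.60 to 0.19).

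Among factors of mitochondrial transcription and rRNA, 1 of 5 fell and the others did not pass, where 27.7% of all genes fell. Polrmt, the mitochondrial RNA polymerase, read 9.27, 9.08 and 9.26 in knockout arrays, against 9.43, 9.65 and 9.70 in wild-type arrays (log2 fold change -0.39, SE 0.10, adjusted p = 0.0172). It no longer passed once knockout 2 was left out (adjusted p = 0.0636, log2 fold change -0.33). Tfb2m, which opens the promoter for Polrmt, did not pass, at 10.26, 10.29 and 10.29 in knockout arrays, against 10.56, 10.54 and 10.11 in wild-type arrays (log2 fold change -0.13, interval -0.43 to 0.17). Wild-type 3 was the lowest of the 6 Tfb2m values, and without it the gene was called lower (log2 fold change -0.28, adjusted p = 0.0204). Tfb1m, the methyltransferase of the small subunit rRNA, read 8.10, 8.14 and 8.14 in knockout arrays, against 8.65, 8.33 and 8.12 in wild-type arrays and did not pass either (log2 fold change -0.24, adjusted p = 0.162). Its second probe set fell by 0.56 on the log2 scale, and without wild-type 3 the main probe set passed (log2 fold change -0.37, adjusted p = 0.0341). Mterf4, which works with the methyltransferase Nsun4 in ribosome assembly, read 8.21, 8.25 and 8.31 in knockout arrays, against 8.43, 8.46 and 8.20 in wild-type arrays (log2 fold change -0.11, interval -0.33 to 0.11). Mterf3, a regulator of mitochondrial transcription and ribosome assembly, read 10.12, 10.10 and 10.20 in knockout arrays, against 10.26, 10.24 and 10.05 in wild-type arrays (log2 fold change -0.04, interval -0.25 to 0.17). The groups overlapped in both, and neither passed.

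Other genes of the pathway were read as lists. Each list below stands beside 27.7% of all genes that fell, 21.6% that rose and a median of -0.11 over all genes. Of 4 ribosomal proteins with other symbols, 1 rose and none fell, but with array medians set equal 2 fell and none rose. Chchd1, a small subunit protein, read 10.89, 10.95 and 10.91 in knockout arrays, against 10.63, 10.71 and 10.32 in wild-type arrays (log2 fold change 0.36, SE 0.11, adjusted p = 0.0309), and Dap3, Ptcd3 and Gadd45gip1 did not pass, with fitted changes of -0.17, -0.19 and -0.14. The Chchd1 call ended when any knockout array was left out (adjusted p up to 0.0892) and with equal array medians (adjusted p = 0.0538), and the list had 1 falling gene without wild-type 3, with the mean of all probe sets, with quantile normalization and among the brighter genes.

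Of 23 genes of ribosome assembly and rRNA modification 12 fell and none rose (median -0.28). Mettl15, an rRNA methyltransferase, read 8.19, 7.86 and 8.07 in knockout arrays, against 9.03, 8.96 and 8.48 in wild-type arrays (log2 fold change -0.78, SE 0.16, adjusted p = 0.00588). Mtg2, a GTPase of large subunit assembly, read 8.54, 8.49 and 8.47 in knockout arrays, against 9.18, 9.02 and 9.46 in wild-type arrays (log2 fold change -0.72, SE 0.12, adjusted p = 0.00226). Mrm2, a methyltransferase of the large subunit rRNA, read 6.89, 7.01 and 7.08 in knockout arrays, against 7.62, 7.40 and 7.50 in wild-type arrays (log2 fold change -0.52, SE 0.09, adjusted p = 0.00353). All of these had knockout values below every wild-type value. Mtg2 did not pass when probe sets with an x or s suffix, which mark probes that may match several transcripts, were left out (log2 fold change -0.22, adjusted p = 0.0706).

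Of 10 genes that copy and transcribe mitochondrial DNA, 5 fell and 1 rose (median -0.32). Tefm, an elongation factor for Polrmt, read 8.33, 8.52 and 8.40 in knockout arrays, against 9.28, 9.03 and 9.05 in wild-type arrays (log2 fold change -0.71, SE 0.10, adjusted p = 0.00114). The topoisomerase Top1mt read 8.24, 8.15 and 8.16 in knockout arrays, against 8.74, 8.74 and 8.70 in wild-type arrays (log2 fold change -0.54, SE 0.08, adjusted p = 0.00103). The nuclease Mgme1 read 7.32, 7.50 and 7.40 in knockout arrays, against 8.01, 7.77 and 7.96 in wild-type arrays (log2 fold change -0.51, SE 0.10, adjusted p = 0.00456). These 3 genes were lower in every knockout array. Ssbp1, the single-stranded DNA-binding protein, rose instead, at 11.82, 11.84 and 11.79 in knockout arrays, against 11.56, 11.55 and 11.09 in wild-type arrays (log2 fold change 0.41, SE 0.13, adjusted p = 0.0358). Its call ended when any knockout array was left out (adjusted p up to 0.0950), with equal array medians (adjusted p = 0.0564) and with the mean of its 5 probe sets (log2 fold change 0.06, adjusted p = 0.637). Tfam, which packs mitochondrial DNA, had a fitted change of -0.24 and missed the threshold (adjusted p = 0.0566).

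Of 24 genes of mitochondrial RNA processing, translation activation and membrane insertion 12 fell and none rose (median -0.26), and without knockout 3 the falling genes numbered 7. Letm1, an inner membrane protein, read 8.61, 8.66 and 8.87 in knockout arrays, against 9.63, 9.45 and 9.65 in wild-type arrays (log2 fold change -0.86, SE 0.10, adjusted p = 0.000526). Fastk, a regulator of mitochondrial mRNA, read 8.48, 8.29 and 8.32 in knockout arrays, against 8.96, 8.88 and 9.31 in wild-type arrays (log2 fold change -0.69, SE 0.13, adjusted p = 0.00375). Oxa1l, which inserts new proteins into the inner membrane, read 8.39, 8.25 and 8.37 in knockout arrays, against 8.75, 8.69 and 9.07 in wild-type arrays (log2 fold change -0.50, SE 0.12, adjusted p = 0.0105). The groups were apart in these genes, but 1 other probe set of Oxa1l was called the opposite way, and the mean of its probe sets did not pass (log2 fold change -0.18, adjusted p = 0.109).

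The nuclear regulators of mitochondrial genes moved both ways. Of 8 measured, 4 fell and 1 rose, where 27.7% of all genes fell and 21.6% rose. Esrra, the orphan receptor that drives many mitochondrial genes, read 8.97, 8.93 and 9.08 in knockout arrays, against 9.86, 10.05 and 10.18 in wild-type arrays (log2 fold change -1.04, SE 0.10, adjusted p = 0.000222). Its coactivator Ppargc1a read 8.95, 8.75 and 9.07 in knockout arrays, against 9.68, 9.88 and 9.64 in wild-type arrays (log2 fold change -0.81, SE 0.11, adjusted p = 0.000998). A related coactivator, Ppargc1b, read 9.07, 8.75 and 9.11 in knockout arrays, against 9.22, 9.69 and 9.76 in wild-type arrays (log2 fold change -0.58, SE 0.16, adjusted p = 0.0221). All were lower in every knockout array. The Ppargc1b call ended without knockout 2, wild-type 2 or wild-type 3 (adjusted p = 0.0530 to 0.0755). Pprc1, a further relative of Ppargc1a tied to growth signals, was 2.5-fold higher, at 8.77, 8.74 and 8.78 in knockout arrays, against 7.59, 7.42 and 7.33 in wild-type arrays (log2 fold change 1.32, SE 0.09, adjusted p = 5.12e-05). Without knockout 2 the falling regulators numbered 2, and without knockout 3 or wild-type 2 the rising ones numbered 2.

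The genes were also set beside the respiratory chain, whose core the mitochondrial ribosome makes, and beside the ribosome of the cytoplasm. Of 80 nuclear genes of oxidative phosphorylation subunits 62 fell and 1 rose, with a median of -0.39. Of 43 cytoplasmic ribosomal protein genes 38 rose and none fell, with a median of 0.51, and 1 fell without wild-type 3. The average over cytoplasmic ribosomal protein genes was 12.42, 12.45 and 12.38 in knockout arrays, against 11.93, 11.89 and 11.79 in wild-type arrays on the log2 scale. The lists of the mitochondrial and cytoplasmic ribosome thus had opposite majorities in the same arrays. The difference between the lists was not tested. With array medians set equal, which moved the median of all genes to -0.19, 56 members fell and 3 rose, and neither majority turned.

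**Figure D4:**
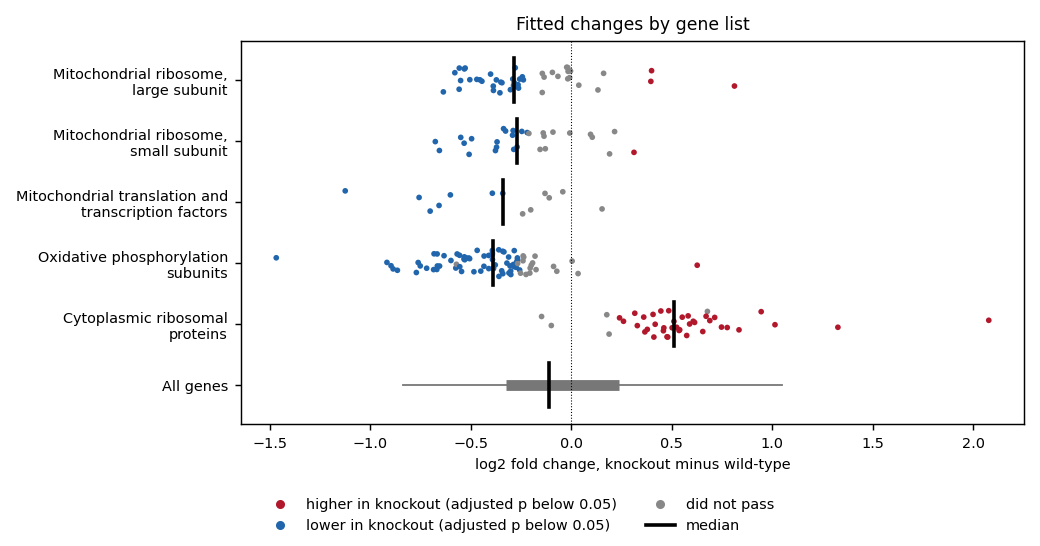
Each point is a gene's log2 fold change, knockout minus wild-type, coloured by call, and black bars are medians. For all genes the thick grey bar spans the middle quartiles and the thin line the 5th to 95th percentile. The medians of the mitochondrial lists lie between -0.39 and -0.27, that of all genes at -0.11 and that of cytoplasmic ribosomal proteins at 0.51.

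Promoters were read because nuclear genes of the mitochondrial ribosome are known targets of NRF1, of the ETS factor GABPA and of YY1. Of the genes of these factors, Gabpa fell (log2 fold change -0.28, adjusted p = 0.0328). Nrf1 (0.33, adjusted p = 0.0517) and Yy1 (-0.04, adjusted p = 0.677) did not pass. Windows of 250 bases before to 50 after the transcription start came from RefSeq on GRCm38.p6 and covered 78 of the 89 members. On either strand, the NRF1 letters, GCGCA and GCGC with any 1 base between, were found in 17.9% of the members' windows, against 8.61% of the 14452 array genes with a window and 5.19% of all 27025 genes with one. The ETS letters CCGGAAG were found in 38.5% of members, against 14.98% of array genes and 9.93% of all genes. The YY1 letters AAGATGGCG were found in 10.3% of members, against 2.53% of array genes and 1.64% of all genes. The motifs could overlap, and base composition was not matched. With the motifs pooled, the shares hardly separated members by direction: at least 1 motif was held by 58.3% of 48 members that fell, 53.8% of 26 that did not pass and 3 of 4 that rose. Cytoplasmic ribosomal protein genes, most of which rose, held at least 1 motif in 63.2% of 38 windows. Oxidative phosphorylation genes, most of which fell, held at least 1 in 33 of 66 windows. NRF1 letters were in 22.7% of oxidative phosphorylation windows and 13.2% of cytoplasmic ribosomal ones. For ETS letters the shares were 25.8% and 47.4%, and for YY1 letters 9.09% and 5.26%. NRF1 letters were in 18.75% of members that fell, 19.2% of those that did not pass and 0 of 4 that rose. ETS letters were in 35.4%, 38.5% and 3 of 4 of them, in the same order. Differences between these shares were not tested.

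The windows below belong to the member with the deepest fall among factors, large subunit and small subunit genes and to the member with the largest rise, and are shown so that the motifs can be placed. They run 5′ to 3′ on the gene's strand in GRCm38.p6, with matches to any of these motifs in capitals. Gfm2 lies at chr13:97137687-97137986, plus strand, Mrpl50 at chr4:49521034-49521333, minus strand, Mrps36 at chr13:100744610-100744909, minus strand, and Mrpl33 at chr5:31613701-31614000, plus strand.
Gfm2: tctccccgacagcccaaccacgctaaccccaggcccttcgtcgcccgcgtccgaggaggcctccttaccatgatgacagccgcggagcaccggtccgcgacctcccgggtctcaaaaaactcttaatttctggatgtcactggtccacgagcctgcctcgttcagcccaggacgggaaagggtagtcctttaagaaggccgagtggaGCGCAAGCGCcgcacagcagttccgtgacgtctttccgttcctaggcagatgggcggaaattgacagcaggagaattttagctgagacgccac
Mrpl50: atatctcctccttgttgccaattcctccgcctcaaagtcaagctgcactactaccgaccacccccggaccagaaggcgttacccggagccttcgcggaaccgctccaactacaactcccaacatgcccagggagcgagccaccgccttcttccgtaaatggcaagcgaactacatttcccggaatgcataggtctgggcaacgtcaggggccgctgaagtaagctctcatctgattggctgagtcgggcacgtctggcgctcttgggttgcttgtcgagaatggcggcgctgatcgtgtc
Mrps36: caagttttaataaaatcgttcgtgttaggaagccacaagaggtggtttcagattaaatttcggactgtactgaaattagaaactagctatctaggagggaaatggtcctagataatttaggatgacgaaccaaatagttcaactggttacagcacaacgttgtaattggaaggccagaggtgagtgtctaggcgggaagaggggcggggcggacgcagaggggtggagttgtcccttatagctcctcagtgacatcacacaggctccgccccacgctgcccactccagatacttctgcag
Mrpl33: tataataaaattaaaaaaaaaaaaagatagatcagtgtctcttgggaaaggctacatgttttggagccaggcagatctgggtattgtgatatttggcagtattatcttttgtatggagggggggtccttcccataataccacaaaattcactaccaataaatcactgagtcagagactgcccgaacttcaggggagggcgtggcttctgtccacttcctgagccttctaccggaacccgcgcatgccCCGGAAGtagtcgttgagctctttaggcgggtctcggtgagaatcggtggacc
The Gfm2 window holds an NRF1 match that begins 43 bases before the start. The Mrpl33 window holds an ETS match that begins 3 bases before the start. The windows of Mrpl50 and Mrps36 hold none of these letters. Whether a match bears on the change of its gene was not tested.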

How the data were processed

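Expression was measured on 6 Affymetrix arrays, 3 Fh1 knockout and 3 wild-type. The authors deposited log2 values, for which the submitters' processing notes name RMA and whose scale was read from the numbers (2.90 to 14.82, array medians 6.20 to 6.25). The sources used here name no version or chip definition for it. RMA compresses changes of dim genes and gives no detection call, and the number of arrays limits precision.

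Of 45101 probe sets, 34945 named 1 gene, 932 several and 9160 none, and 64 were controls. Symbols were updated through Entrez identifiers for 34741, and 204 kept the annotation's symbol. The brightest probe set stood for each of 18193 genes. Knockout was compared with wild-type by a two-sided moderated test in limma 3.58.1 (lmFit, then eBayes) under R 4.3.3, without covariate or filter, with Benjamini-Hochberg adjustment over all genes and a threshold of 0.05. No set test was run. Data simulated for this comparison held 18193 genes, with 50 altered by a log2 change of 0.5, 100 by 1 and 50 by 2. Recovery of altered genes was 38.0% at 0.5, 77.0% at 1 and 94.0% at 2, with 9 false calls among 152. The real fit called 8959 genes, so its adjusted threshold was less strict and these rates do not carry over to it.

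The members, lists and alternatives were chosen with earlier results of these data known. Values per array were given by rule for all factors, for the called members with the largest falls (6 large, 5 small) and up to 4 rises per subunit, for stalk proteins, Mrps12, Mrps18 paralogues, Mrps30, members with opposed probe sets, and for the 3 largest called changes per pathway list and direction. Members outside this rule are given by range, with a few read singly. Cdh16, Dap3, Ptcd3, Gadd45gip1, Tfam, Slc5a12, Itgam, Mrpl58, Mrpl41, Mrpl9 and Mrps7 were chosen after their values were seen. Same-numbered arrays did not deviate together (correlations -0.10, -0.13 and -0.13), so numbers were not taken as pairs. Alternatives were the mean of a gene's probe sets, probe sets without x or s suffix, brighter genes only, a trended robust prior, arrays centred to the same median over the tested genes, quantile normalization, array weights, a replicate block, unupdated symbols, stricter thresholds and each array left out. The assignments without Mrps36 and with Mrps18a and Mrps18b as bacterial counterparts were added after the values were seen. Python 3.11.15 and matplotlib 3.10.9 were used.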

Additional observations from a re-analysis of the deposited data

How the results depend on the processing

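The medians of the large subunit, small subunit and factors stayed below 0 in every alternative run, and no member called in the fit of all arrays was called the opposite way. The call held in all 9 other fits and in all 6 that left out an array for 15 of 30 large subunit, 7 of 17 small subunit and 6 of 7 factor genes that fell, and for Mrpl33 and Mrpl52, counting only fits that held the gene. Falling genes numbered 30 in the large and 17 in the small subunit; these became 16 and 11 with a replicate block, 15 and 7 at an adjusted p of 0.01, and 1 and 2 at 1.5-fold or more. No knockout array correlated best with the wild-type array of its own number. Leaving out 1 array gave 16 to 31 falling large subunit genes, 9 to 17 small subunit genes and 0 to 1 rising small subunit genes, with medians of -0.30 to -0.23 (large), -0.29 to -0.23 (small) and -0.37 to -0.33 (factors). The rising large subunit genes numbered 1 at 1.5-fold or more. The rising small subunit gene was 1 in the main setting, 3 with the mean of all probe sets, and 0 with centred arrays, quantile normalization, the replicate block, adjusted p 0.01 or 1.5-fold. Medians with centred arrays were -0.36 (large), -0.35 (small) and -0.42 (factors). With quantile normalization they were -0.32 (small) and -0.43 (factors), with the mean of all probe sets -0.23 (small) and -0.40 (factors), and without x or s suffixes -0.39 (factors). Large minus small was -0.0604 with the mean of all probe sets, 0.0096 with quantile normalization and 0.0075 with Mrps30 and Mrps18a moved. Mrps21 turned to 0.0788 (log2) with the mean of its probe sets, which oppose each other. Of 38 rising cytoplasmic ribosomal protein genes 14 rose by 1.5-fold or more, and 0 to 1 fell when 1 array was left out. Falling oxidative phosphorylation genes numbered 62, with 40 at adjusted p 0.01 and 17 at 1.5-fold, and the rising one became 3 without x or s suffixes and 0 among brighter genes. Fewer arrays, stricter thresholds and fewer residual degrees of freedom lower such counts by construction. The cause of the other moves was not tested. Signal over background is not known for these values, so changes of dim genes such as Mtrf1l are the least certain.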

Other observations

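Mrpl30 and Mrpl53, which lack a probe set of their own, were seen only through probe sets shared with a neighbour or copy. The brighter probe set naming Mrpl30 and Gm6238 read 11.38, 11.38 and 11.44 in knockout arrays, against 11.25, 11.40 and 11.14 in wild-type arrays, and the groups overlapped. The other was dim, at 4.88, 4.94 and 4.68 in knockout arrays, against 5.30, 5.29 and 4.90 in wild-type arrays. The probe set naming Mrpl53 and Ccdc142 read 10.20, 10.39 and 10.24 in knockout arrays, against 10.68, 10.49 and 10.57 in wild-type arrays, with all knockout values lower. Which gene these signals come from cannot be told apart.

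A single probe set named a gene of mitochondrial DNA, ND5, a core subunit of complex I that the mitochondrial ribosome itself translates. It was among the brightest on the arrays, at 14.40, 14.34 and 14.39 in knockout arrays, against 14.60, 14.59 and 14.63 in wild-type arrays (log2 fold change -0.23, SE 0.07, adjusted p = 0.0340). All knockout values were lower. The highest value on any array was 14.82, and whether the ND5 signal was near saturation was not tested. Of the other probe sets of the 49 members with several, 73 of 89 had the sign of the brightest one. Some members that did not pass had a dimmer probe set that was called in a fit of all probe sets. The largest such change was in Mrpl15, at 8.23 in knockout and 7.01 in wild-type arrays (log2 fold change 1.22). Another Mrpl15 probe set rose by 0.79 on the log2 scale, and its brighter ones did not pass. Such probe sets also rose for Mrpl13, Mrpl21, Mrps9 and Mrps10. They fell for Mrpl17, Mrpl35, Mrpl47, Mrpl51, Mrpl57, Mrps14 and Tfb1m.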
